A study of Homo sapiens with 12 samples.

Results

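Genes of endoplasmic reticulum (ER) stress, secretory protein folding and the ATF4 response were followed in SaOS-2, an established human osteosarcoma cell line, and in Sa/CD99, SaOS-2 clones stably transfected with CD99. The set was a list of 41 named genes, grouped by known function. No measured value enters the rule, though earlier results of these data were known when the list was drawn up. It held 14 chaperones and folding enzymes, 9 sensors and transcription factors, 4 genes of ER-associated degradation, 8 genes of amino acid synthesis and transport and 6 genes of the stress response and its feedback. One probe set stood for each gene, the brightest over the 12 arrays among those that name that gene alone, and 40 genes had such a probe set, of 19775 genes in all. SYVN1, an ubiquitin ligase of the ER membrane, was measured only by a probe set that also names MIR6751, so it is not counted, and the signal of that probe set lay between 7.42 and 8.15 on the 12 arrays. Of the 40 genes, 39 lay above the signal floor (a linear signal of 100, or 6.64 on the log2 scale, exceeded on more than 3 arrays) and 23 were tested, as they also varied more than the median probe set. The other 17 are described by their values.

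Total RNA was hybridized to 12 Affymetrix arrays, 2 for each line at day 0, in routine medium, and after 7 and 14 days in medium with ascorbic acid, beta-glycerophosphate and reduced serum, which drives osteoblast differentiation. Sa/CD99 is represented by 2 neomycin-selected clones, wt22 and wt36, with 1 array each per day, so its spread is a spread between clones, and each clone is 1 line. The parental cells are numbered 1 and 2 on each day without a statement in the labels that they were grown apart, so the p-values cover the spread of these particular samples, part of which may be technical. Time in culture and the change of medium go together from day 0 to later days and cannot be told apart. In RNA of a whole culture, fewer cells with a transcript and less of it per cell cannot be told apart either. Genes were tested with limma, with p-values adjusted over all 12894 probe sets tested. A gene is named as called if its adjusted p was 0.05 or less and it changed 1.5-fold or more, and the words rose, fell, higher and lower are kept for calls.

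CD99 itself went against its label on the dimmer of its 2 probe sets. Its brighter probe set gave log2 values of 12.32 to 12.74 on the arrays labelled Sa/CD99 and 12.29 to 12.66 on those of SaOS-2, and the dimmer one 6.67 to 8.88 on the arrays labelled Sa/CD99 and 11.26 to 11.88 on those of SaOS-2. On each day both arrays labelled Sa/CD99 lay slightly above those of SaOS-2 on the brighter probe set. Its means at days 0, 7 and 14 were 12.32, 12.59 and 12.7 in Sa/CD99 and 12.3, 12.52 and 12.66 in SaOS-2, under 1.5-fold. As the dimmer one lay far below, every direction between the lines is given as the labels have it. According to its methods, the study verified CD99 expression in all arrayed samples with real-time PCR, and those measurements were not analysed here. Of 8 measured osteoblast markers 7 lay above the signal floor, among them RUNX2, COL1A1 and ALPL, and SPP1 did not. Of 11 measured markers of blood, epithelium, endothelium, muscle, cartilage and fat, 2 lay above it, EPCAM at 7.22 to 8.68 and KRT18 at 7.86 to 9.89, while PTPRC, CDH1, PECAM1 and ADIPOQ did not. The 2 clones lay further apart than the 2 parental arrays: over the 40 genes the median difference within a pair was 0.13, 0.17 and 0.17 (log2) between clones at days 0, 7 and 14 and 0.06, 0.06 and 0.04 between parental arrays. When each line was given its own weight, Sa/CD99 received 0.38 and SaOS-2 2.61. The main fit instead shares 1 spread over both lines. Set against the unpaired spread of each line's arrays, its SE for changes between days differs by line. It is on the whole too small in Sa/CD99 and too large in SaOS-2. The p-values of these changes are thus likely too high in SaOS-2. In Sa/CD99 the same 2 clones were compared across days. Their deviations correlated with r = 0.58, 0.32 and 0.63 between days 0 and 7, 0 and 14, and 7 and 14. The main fit does not use this pairing, which narrows the spread of a change. Its p-values in Sa/CD99 may thus be too low, but this is not settled.

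Proteins that enter the ER are folded there by chaperones such as HSPA5 (BiP) and HSP90B1 (GRP94) and by disulfide isomerases of the PDI family. Unfolded protein activates the sensors ATF6, ERN1 (IRE1) and EIF2AK3 (PERK). ATF6 and ERN1, which splices the mRNA of XBP1, raise chaperones and degradation factors, whereas EIF2AK3 phosphorylates the initiation factor eIF2 alpha and so raises translation of ATF4. ATF4 is also reached by other eIF2 alpha kinases, among them one that senses missing amino acids, and it drives genes that make and import amino acids together with DDIT3 (CHOP), TRIB3, SESN2 and CHAC1. Osteoblasts secrete large amounts of collagen, and ATF4 is a known factor of their differentiation in mouse.

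Promoter sequences were read for the letters by which the chaperone and the ATF4 branch are usually told apart. RefSeq promoters of GRCh38.p14, from 250 bases before to 50 after the start, were given for 37 of the 41 genes (53 promoters). PDIA3, PSPH, SHMT2 and SLC7A11 are not among them. Both strands were searched for the ER stress element (ERSE), CCAAT and CCACG parted by 9 bases, for the unfolded protein response element (UPRE), TGACGTGG, and for the amino acid response element (CARE), TGATGNAA. The CCACG part of ERSE, read on the other strand, overlaps the end of UPRE. ERSE stood in 8 of 18 promoters of chaperones and folding genes, those of HSPA5, HSP90B1, CALR, CANX, CRELD2 and PDIA6, against 0.0769% of all 35116 promoters, and in that of XBP1. Counted by gene, ERSE stood in 6 of 13 chaperones and folding genes, as several of the promoters with it are those of CANX. It was in 0 of 8 promoters of amino acid genes. CARE stood in promoters of ASNS and SLC3A2 among the amino acid genes, of CHAC1, HERPUD1 and CREB3L2 and in 0 of 18 chaperone promoters, against 3.62% of all. It was not matched in promoters of PSAT1, PHGDH, SLC7A5, VLDLR, STC2, SESN2 or TRIB3. The counts of 0 for ERSE in amino acid genes and for CARE in chaperones are near the shares over all promoters. UPRE was matched in HYOU1 alone among the 53 (0.729% of all). The following 3 are shown because HSPA5 and HSP90B1 are the main chaperones and ASNS the best known ATF4 target below. Capitals mark the matches, of ERSE in HSPA5 and, once on each strand, in HSP90B1, and of CARE in ASNS, where it starts 68 bases before the gene's start, in 1 of its 2 promoters.
HSPA5 (chr9:125241294-125241593, minus strand): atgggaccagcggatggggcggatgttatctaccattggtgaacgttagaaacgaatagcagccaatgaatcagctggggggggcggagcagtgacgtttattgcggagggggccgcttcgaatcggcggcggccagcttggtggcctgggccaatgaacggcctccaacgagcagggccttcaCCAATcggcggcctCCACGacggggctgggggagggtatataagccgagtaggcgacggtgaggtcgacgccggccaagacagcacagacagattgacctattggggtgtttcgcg
HSP90B1 (chr12:103930160-103930459, plus strand): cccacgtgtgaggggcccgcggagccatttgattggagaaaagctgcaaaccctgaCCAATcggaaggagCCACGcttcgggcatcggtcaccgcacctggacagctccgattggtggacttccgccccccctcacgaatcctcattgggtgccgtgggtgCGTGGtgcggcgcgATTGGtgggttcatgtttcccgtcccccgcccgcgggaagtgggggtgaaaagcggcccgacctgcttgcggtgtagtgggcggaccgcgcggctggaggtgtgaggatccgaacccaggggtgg
ASNS (chr7:97872359-97872658, minus strand): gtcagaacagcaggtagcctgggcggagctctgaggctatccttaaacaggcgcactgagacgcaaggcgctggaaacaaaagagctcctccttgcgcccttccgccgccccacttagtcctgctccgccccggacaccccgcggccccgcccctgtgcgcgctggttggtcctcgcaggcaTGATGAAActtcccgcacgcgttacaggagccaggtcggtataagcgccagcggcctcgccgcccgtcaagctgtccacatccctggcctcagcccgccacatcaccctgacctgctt
A match is a description of these letters and not of binding.

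No chaperone was called between the lines, and few were between days. HSPA5, the main Hsp70 chaperone of the ER, lay at 12.71 and 12.54 in clones wt22 and wt36 at day 0, 12.49 and 12.69 at day 7 and 12.46 and 12.33 at day 14. In SaOS-2 its 2 arrays gave 12.55 and 12.61, 12.55 and 12.55, and 12.41 and 12.44 on these days. All 12 arrays thus lay within 12.33 to 12.71, the lines overlapped on each day, and HSPA5 was not tested because it varied too little. PDIA6 (12.34 to 12.68) and PDIA3 (11.95 to 12.36), both disulfide isomerases, CALR (10.21 to 10.63) and SDF2L1, a cofactor of HSPA5 (9.31 to 9.63), were likewise left untested for small variation, as were CRELD2 (10.43 to 10.73) and MANF (10.13 to 10.54), secreted ER stress proteins. Over the 14 chaperones the median difference between the lines was -0.05, 0.00 and -0.03 at days 0, 7 and 14, against 0.01, 0.03 and 0.02 over all 9729 genes above the signal floor, and 0 of the 7 tested were called.

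Between days, HSP90B1, the Hsp90 of the ER lumen, gave 11.13 and 10.82 in Sa/CD99 at day 0, 10.71 and 10.39 at day 7 and 10.10 and 10.14 at day 14. In SaOS-2 it gave 11.08 and 11.11, 10.79 and 10.83, and 10.24 and 10.13. All 4 arrays of day 14 lay below all others. At day 14 it fell in Sa/CD99 (-0.86, 1.81-fold, SE 0.13, adjusted p = 0.00216 by limma) and in SaOS-2 (-0.91, 1.87-fold, SE 0.13, adjusted p = 0.00199). A second probe set of HSP90B1 gave -0.46 in Sa/CD99 and -0.20 in SaOS-2 for the same comparison and was not called (adjusted p = 0.267 and 0.651), so this call rests on 1 probe set. Both carry a suffix of probes that can match other transcripts. Such a suffix is also on the probe sets used for DNAJB9, PDIA4, ASNS, PSAT1, PSPH, SLC7A5, VLDLR and SESN2. Those of PDIA6, CALR, CANX, HYOU1, SDF2L1, ATF5, CREB3L2, HERPUD1, SEL1L, SHMT2 and SLC3A2 carry one too. DNAJB9, a DnaJ partner of HSPA5 that restrains ERN1, was at 8.62 and 8.51, 8.95 and 9.03, and 8.09 and 8.52 in Sa/CD99 at days 0, 7 and 14, and at 8.39 and 8.25, 8.95 and 8.87, and 8.10 and 8.21 in SaOS-2. The 4 arrays of day 7 were its highest. It rose at day 7 in SaOS-2 (0.59, SE 0.14, adjusted p = 0.00966) but gave 0.03 with the gene's second probe set and 0.40 with the third, neither called, and its call was lost without SaOS-2 day 7 replicate 1 (0.55, adjusted p = 0.066) or SaOS-2 day 0 replicate 2 (0.52, adjusted p = 0.0689). In Sa/CD99 it gave 0.42 (adjusted p = 0.041), under 1.5-fold.

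PDIA4, another disulfide isomerase, fell at day 7 in SaOS-2, with 10.00 and 10.02 at day 7 against 10.69 and 10.65 at day 0 (-0.66, 1.58-fold, SE 0.10, adjusted p = 0.0016 by limma). Its second probe set gave -0.42 (adjusted p = 0.0551). In Sa/CD99 PDIA4 gave 10.27 and 10.10 at day 7 and 10.72 and 10.52 at day 0, a change of -0.43 that passed the adjusted p (0.0115) and not the fold. DNAJB11, a DnaJ partner of HSPA5, came close to the fold in Sa/CD99 at both days (-0.57, SE 0.08, adjusted p = 0.00119 at day 7 and -0.57, adjusted p = 0.00155 at day 14) and gave -0.28 and -0.44 in SaOS-2. HYOU1, a chaperone of the Hsp110 kind, gave -0.35 and -0.18 in Sa/CD99 and -0.39 and -0.17 in SaOS-2, and CANX, the membrane-bound lectin chaperone, -0.11 and -0.30 in Sa/CD99 and -0.02 and -0.37 in SaOS-2. The medians of the 14 chaperones were -0.11 and -0.20 in Sa/CD99 at days 7 and 14 and -0.07 and -0.19 in SaOS-2, against -0.03, 0.02, -0.05 and 0.00 over all genes. With other filters, fits or probe sets, the day 14 medians were -0.36 to -0.17 in Sa/CD99 and -0.21 to -0.14 in SaOS-2. Those of day 7 were -0.09 to -0.07 in Sa/CD99 and -0.12 to 0.03 in SaOS-2. At day 14, 13 of the 14 had a negative change in Sa/CD99 and 13 in SaOS-2, with CRELD2 (0.18 and 0.14) the exception in both. The 2 lines' changes are separate measurements, but both days of a line share that line's day 0 arrays.

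The sensors and transcription factors had 0 calls in every comparison made by limma, with 3 of 9 tested. ATF4, the factor that gives the second branch its name, lay at 10.93 and 11.07, 10.50 and 10.64, and 11.06 and 10.70 in Sa/CD99 at days 0, 7 and 14, and at 11.03 and 10.88, 10.58 and 10.49, and 10.67 and 10.68 in SaOS-2. The arrays of day 7 were the lowest within each line. Its change at day 7 was -0.43 in Sa/CD99 (SE 0.13, adjusted p = 0.0312 by limma) and -0.42 in SaOS-2 (SE 0.13, adjusted p = 0.0294), 1.34-fold in each, under the fold asked for. At day 14 it was -0.12 (adjusted p = 0.479) and -0.28 (adjusted p = 0.125). ATF4 is controlled largely by translation, which these arrays do not measure. CREB3L1 (OASIS), a membrane-bound factor of collagen secretion in osteoblasts of mouse, gave -0.04 and -0.09 in Sa/CD99 at days 7 and 14 and -0.42 and -0.51 in SaOS-2 (adjusted p = 0.032 and 0.021).

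XBP1 lay between 8.76 and 9.19 and DDIT3, the factor linked to death under ER stress, between 7.91 and 8.19 on all arrays. Neither was tested after both filters, and with the signal filter alone XBP1 differed by 0.23, 0.27 and 0.02 between the lines at days 0, 7 and 14 (adjusted p = 0.409, 0.165 and 0.947) and DDIT3 by 0.11, -0.07 and 0.07 (adjusted p = 0.756, 0.72 and 0.77). The 3 sensors were between 8.13 and 8.61 for ATF6, 6.61 and 7.35 for ERN1 and 8.88 and 9.32 for EIF2AK3. ERN1 at day 7 gave -0.23 in Sa/CD99 and -0.41 in SaOS-2 with the signal filter alone. ATF5, a relative of ATF4, lay between 7.33 and 7.93 and CREB3L2, a relative of CREB3L1, between 9.25 and 9.73. The values of XBP1 are of its total mRNA and do not tell the spliced form.

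Of the genes of ER-associated degradation, SEL1L, the scaffold of the ubiquitin ligase complex, and EDEM1, a mannosidase-like protein that marks misfolded glycoproteins, were tested and not called. EDEM1 was at 8.56 and 8.37 in Sa/CD99 at day 14 against 8.89 and 9.04 at day 0, and at 8.50 and 8.45 in SaOS-2 at day 14 against 9.09 and 8.89 at day 0. Its arrays did not overlap between those days, and the change of -0.50 in Sa/CD99 (adjusted p = 0.0127 by limma) and -0.52 in SaOS-2 (adjusted p = 0.0126) was under 1.5-fold. SEL1L differed by -0.29, -0.29 and -0.20 between the lines at days 0, 7 and 14 (adjusted p = 0.284, 0.17 and 0.405), with the arrays labelled Sa/CD99 below those of SaOS-2 on each day. It lies on chromosome 14, whose 331 genes above the floor had median differences of -0.13, -0.14 and -0.14, and the part of that shift in the value of SEL1L was not tested. HERPUD1, an ER membrane protein that is raised strongly by ER stress, lay between 9.76 and 10.22 and was not tested.

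**Figure D1:**
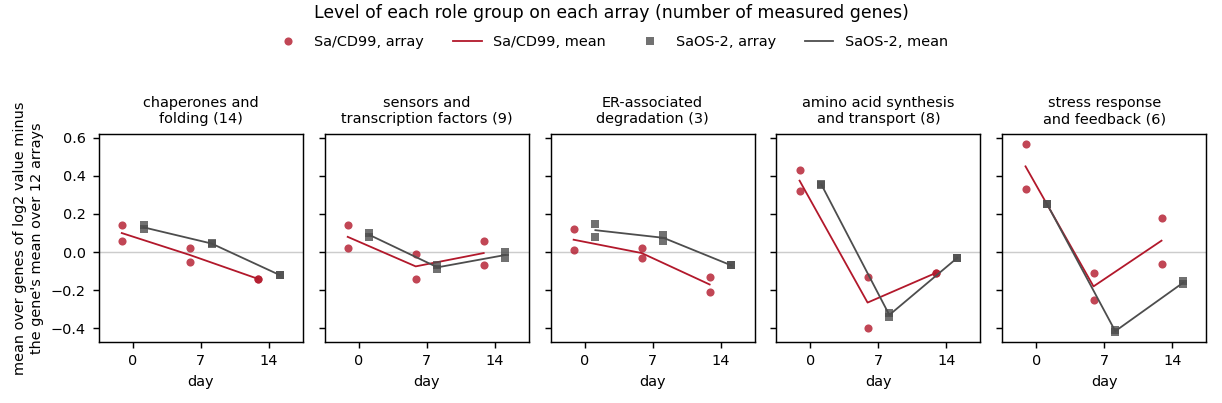
Mean level of the measured genes of each role group on each of the 12 arrays, as log2 value minus the mean of each gene over all arrays, against the day (0, 7, 14), with red dots for arrays labelled Sa/CD99, grey squares for SaOS-2 and lines for means of 2 arrays. Amino acid genes lie at -0.13 or below on all day 7 arrays and at 0.32 to 0.43 on all day 0 arrays, while chaperones stay within -0.14 to 0.14.

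Of the 8 genes of amino acid synthesis and transport, 6 were tested and 5 fell at day 7 in each line, and all 8 had a negative change there. The median change at day 7 was -0.68 in Sa/CD99 and -0.73 in SaOS-2, against -0.03 and -0.05 over all genes. In Sa/CD99, 0 of the 23 tested genes of the whole set rose and 7 fell at day 7, where 8.22% of all 6644 tested genes rose and 7.59% fell. In SaOS-2, 1 rose and 8 fell, where 10.9% of all genes rose and 9.44% fell. With the brightest probe set without the suffixes of less specific probes, or with the second brightest, this median was -0.31 in Sa/CD99 in both cases and -0.42 and -0.30 in SaOS-2. Among those probe sets is a second one of ASNS, which lay below the signal floor.

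ASNS, the enzyme that makes asparagine and a classical ATF4 target, gave 10.55 and 10.38 in Sa/CD99 at day 0, 9.23 and 9.77 at day 7 and 9.86 and 9.84 at day 14. In SaOS-2 it gave 10.14 and 10.13, 8.98 and 9.02, and 9.51 and 9.50. Day 7 was the lowest day in both lines, with no overlap with day 0. ASNS fell at day 7 in Sa/CD99 (-0.97, 1.95-fold, SE 0.15, adjusted p = 0.00187 by limma) and in SaOS-2 (-1.14, 2.20-fold, adjusted p = 0.000879). ASNS was still lower at day 14 than at day 0, with -0.61 in Sa/CD99 (adjusted p = 0.0148) and -0.63 in SaOS-2 (adjusted p = 0.0157). These day 14 values are close to the fold threshold: the call in SaOS-2 was lost without each of its 4 arrays (adjusted p = 0.0774 and 0.0836 without day 0 replicates 1 and 2, 0.0812 and 0.0853 without day 14 replicates 1 and 2), and that in Sa/CD99 without clone wt22 at day 0 (-0.53) or at day 14 (adjusted p = 0.0504). With a further quantile normalization they were under the fold, at -0.54 in Sa/CD99 and -0.55 in SaOS-2.

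Serine is made from a glycolytic intermediate by PHGDH, PSAT1 and PSPH in turn, and SHMT2 passes its carbon on in mitochondria. PSAT1 gave 10.51 and 10.45, 9.15 and 9.76, and 9.74 and 9.46 in Sa/CD99 at days 0, 7 and 14, and 10.42 and 10.57, 9.58 and 9.57, and 9.71 and 9.73 in SaOS-2. The day 0 arrays lay above all later ones in both lines. PSAT1 fell at day 7 in Sa/CD99 (-1.02, SE 0.18, adjusted p = 0.00291 by limma) and in SaOS-2 (-0.92, adjusted p = 0.00428). At day 14 it fell in Sa/CD99 (-0.88, adjusted p = 0.00622) and in SaOS-2 (-0.77, adjusted p = 0.0126). Its second probe set was called in the same 4 comparisons, with -0.96 and -0.80 in Sa/CD99 and -0.72 and -0.83 in SaOS-2. The day 14 call of SaOS-2 was lost without its day 0 replicate 2 (-0.70, adjusted p = 0.0904) and without day 14 replicate 1 (-0.76, adjusted p = 0.0731) or replicate 2 (-0.78, adjusted p = 0.0702).

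PHGDH, the first enzyme of the pathway, was at 10.55 and 10.13, 9.74 and 9.71, and 10.32 and 10.25 in Sa/CD99 at days 0, 7 and 14, and at 10.33 and 10.21, 9.63 and 9.56, and 10.31 and 10.21 in SaOS-2. It was called at day 7 and not at day 14: the change was -0.62 in Sa/CD99 (SE 0.13, adjusted p = 0.00783 by limma) and -0.67 in SaOS-2 (SE 0.13, adjusted p = 0.00471) at day 7, and -0.06 and -0.01 at day 14 (adjusted p = 0.739 and 0.958). Without clone wt22 at day 0 the day 7 value in Sa/CD99 was -0.41, under the fold, and so it was with a further quantile normalization (-0.57). With 1 weight per line its adjusted p was 0.052. PSPH, the phosphatase of the last step, gave -0.38 in Sa/CD99 (adjusted p = 0.0332) and -0.56 in SaOS-2 (1.48-fold, adjusted p = 0.00589) at day 7 and was not called. SHMT2 lay between 10.24 and 10.68 on all arrays and was not tested.

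The transporter subunits differed among themselves. SLC7A5 (LAT1), the importer of large neutral amino acids, gave 9.56 and 9.91, 8.78 and 9.22, and 9.31 and 9.38 in Sa/CD99 at days 0, 7 and 14, and 9.75 and 9.62, 8.80 and 8.73, and 9.51 and 9.38 in SaOS-2. It fell at day 7, with -0.73 in Sa/CD99 (SE 0.16, adjusted p = 0.00828 by limma) and -0.92 in SaOS-2 (adjusted p = 0.00273), and was not called at day 14 (-0.39 and -0.24). In Sa/CD99 its value was under the fold without clone wt22 at day 7 (-0.51) or clone wt36 at day 0 (-0.56). SLC3A2, the chain that SLC7A5 and SLC7A11 share, lay between 8.90 and 9.45 on all arrays and was not tested.

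SLC7A11 (xCT), which imports cystine for glutathione, was called at both days. It gave 8.21 and 7.64, 6.78 and 7.08, and 6.06 and 6.59 in Sa/CD99 at days 0, 7 and 14, and 8.40 and 8.32, 7.63 and 7.50, and 6.99 and 7.12 in SaOS-2. Within each line the 3 days did not overlap, and on each day both arrays labelled Sa/CD99 lay below those of SaOS-2. SLC7A11 fell at day 7 in Sa/CD99 (-1.0, SE 0.21, adjusted p = 0.00759 by limma) and in SaOS-2 (-0.79, adjusted p = 0.0176). At day 14 it fell in Sa/CD99 (-1.60, 3.04-fold, adjusted p = 0.00108) and in SaOS-2 (-1.31, 2.47-fold, adjusted p = 0.00316). At day 14 both Sa/CD99 arrays were below the signal floor of 6.64, where values lie close to the background. The day 7 call of SaOS-2 was lost without any of its 4 arrays (-0.75 and -0.83 without day 0 replicates 1 and 2, -0.86 and -0.73 without day 7 replicates 1 and 2) and its value was -0.30 with the second probe set (adjusted p = 0.363). That probe set gave -0.71 in Sa/CD99 at day 7 (adjusted p = 0.0528), and it was called at day 14 with -2.15 in Sa/CD99 and -1.58 in SaOS-2. The difference between the lines was -0.43, -0.64 and -0.73 (SE 0.21, adjusted p = 0.454, 0.139 and 0.133) and was not called.

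**Figure D2:**
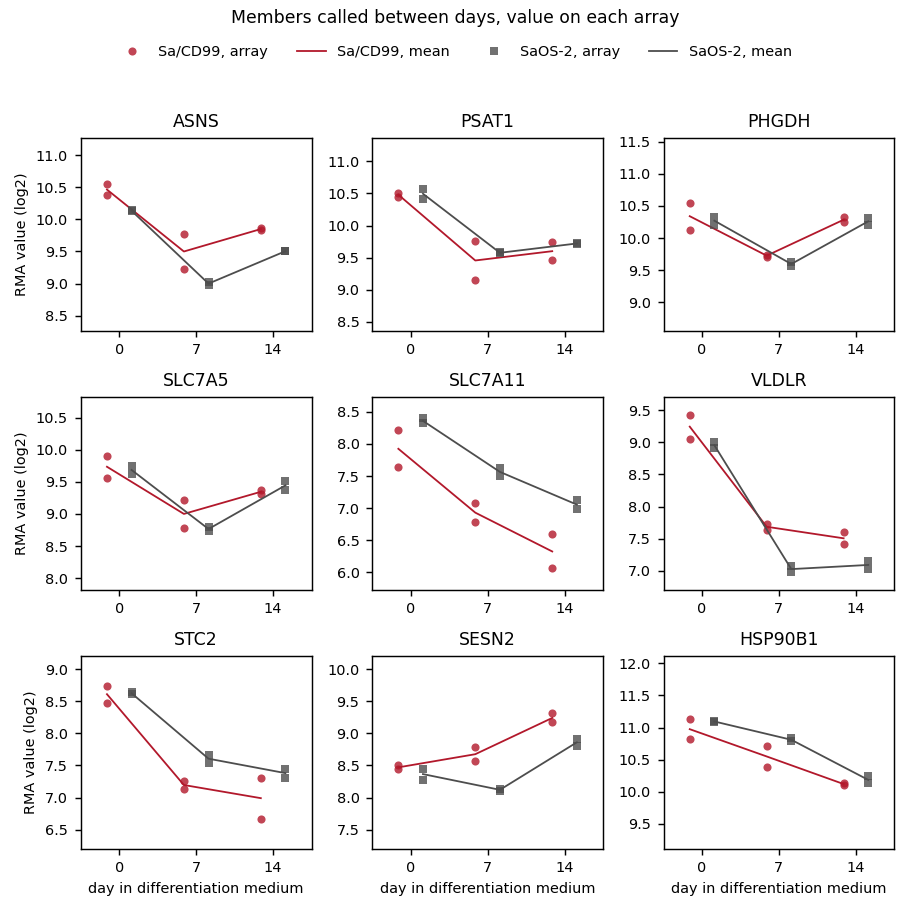
RMA values (log2) on each array of 9 genes called between days, against the day in differentiation medium, with red dots for arrays labelled Sa/CD99, grey squares for SaOS-2 and lines for means of 2 arrays. ASNS, PHGDH and SLC7A5 are lowest at day 7 in both lines, SLC7A11 and HSP90B1 at day 14, VLDLR lies at 7.73 or below on days 7 and 14 and at 8.91 or above on day 0, and SESN2 is highest at day 14.

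The largest changes of the whole set were those of VLDLR, a lipoprotein receptor known as an ATF4 target. It gave 9.06 and 9.43, 7.64 and 7.73, and 7.60 and 7.41 in Sa/CD99 at days 0, 7 and 14, and 8.91 and 9.0, 7.07 and 6.98, and 7.15 and 7.03 in SaOS-2. All later arrays lay more than 1 log2 unit below all day 0 arrays. VLDLR fell at day 7 in Sa/CD99 (-1.56, 2.95-fold, SE 0.13, adjusted p = 8.97e-05 by limma) and in SaOS-2 (-1.93, 3.80-fold, adjusted p = 5.42e-05). At day 14 it fell in Sa/CD99 (-1.74, 3.34-fold, adjusted p = 6.98e-05) and in SaOS-2 (-1.86, 3.63-fold, adjusted p = 5.6e-05), and these 4 calls held under each of the 20 alternatives run for them. VLDLR had 1 probe set of its own, so none of these alternatives used another. STC2, a secreted glycoprotein raised by ER stress, gave 8.48 and 8.74, 7.14 and 7.25, and 7.31 and 6.67 in Sa/CD99, and 8.61 and 8.64, 7.67 and 7.54, and 7.31 and 7.45 in SaOS-2. No array of a later day overlapped with day 0. STC2 fell at day 7 in Sa/CD99 (-1.42, SE 0.19, adjusted p = 0.000739) and in SaOS-2 (-1.01, adjusted p = 0.00332). The later day gave the same direction, and STC2 fell at day 14 in Sa/CD99 (-1.62, adjusted p = 0.000514) and in SaOS-2 (-1.24, adjusted p = 0.00216), and its second probe set was called in all 4 comparisons.

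SESN2, a stress protein that restrains mTORC1, was the 1 gene of the set that rose at day 14. In Sa/CD99 it gave 8.44 and 8.50, 8.57 and 8.78, and 9.31 and 9.17 at days 0, 7 and 14, and in SaOS-2 8.45 and 8.28, 8.10 and 8.14, and 8.91 and 8.81. Day 14 did not overlap with the other days in either line. It rose at day 14 in Sa/CD99 (0.77, 1.70-fold, SE 0.11, adjusted p = 0.00145 by limma) and gave 0.49 in SaOS-2 (1.41-fold, adjusted p = 0.0109), under the fold. Its second probe set gave 0.58 and 0.51 and was not called. PPP1R15A (GADD34), which reverses the phosphorylation of eIF2 alpha, gave 0.06 and 0.37 in Sa/CD99 and 0.37 and 0.34 in SaOS-2 at days 7 and 14 (adjusted p of 0.148 or more), and TRIB3, a pseudokinase that feeds back on ATF4, -0.19 and 0.30 in Sa/CD99 and -0.34 and 0.07 in SaOS-2.

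CHAC1, which degrades glutathione and is a known ATF4 target, lay at 6.93 and 7.06, 6.07 and 6.18, and 6.75 and 6.37 in Sa/CD99 at days 0, 7 and 14, and at 6.50 and 6.54, 5.63 and 5.78, and 6.27 and 6.27 in SaOS-2. It did not pass the signal filter, as only 3 arrays, all of the arrays labelled Sa/CD99, lay above the floor. With no filter its change at day 7 was -0.87 in Sa/CD99 (adjusted p = 0.00171 by limma) and -0.82 in SaOS-2 (adjusted p = 0.00245), past both thresholds of that fit, and at day 14 -0.43 and -0.25 (adjusted p = 0.0657 and 0.292). The medians of all probe sets on the 12 arrays were 5.25 to 5.31, close to the lowest of these values.

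At day 14 in Sa/CD99, 1 tested gene of the set rose (SESN2) and 6 fell, where 7.42% of all tested genes rose and 12.3% fell. In SaOS-2, 0 rose and 6 fell, where 7.42% rose and 7.31% fell. The share of the set that fell, 6 of 23, was thus larger than over all genes in both lines, and the same holds for 7 and 8 of 23 at day 7; the genes were listed with earlier results of these data known, and no test was made on the shares. When only the arrays of the groups compared were fitted, without the spread of the other groups, 2 of the 7 calls were left in Sa/CD99 at day 7 (VLDLR and STC2) and 1 of 7 at day 14 (VLDLR).

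**Figure D3:**
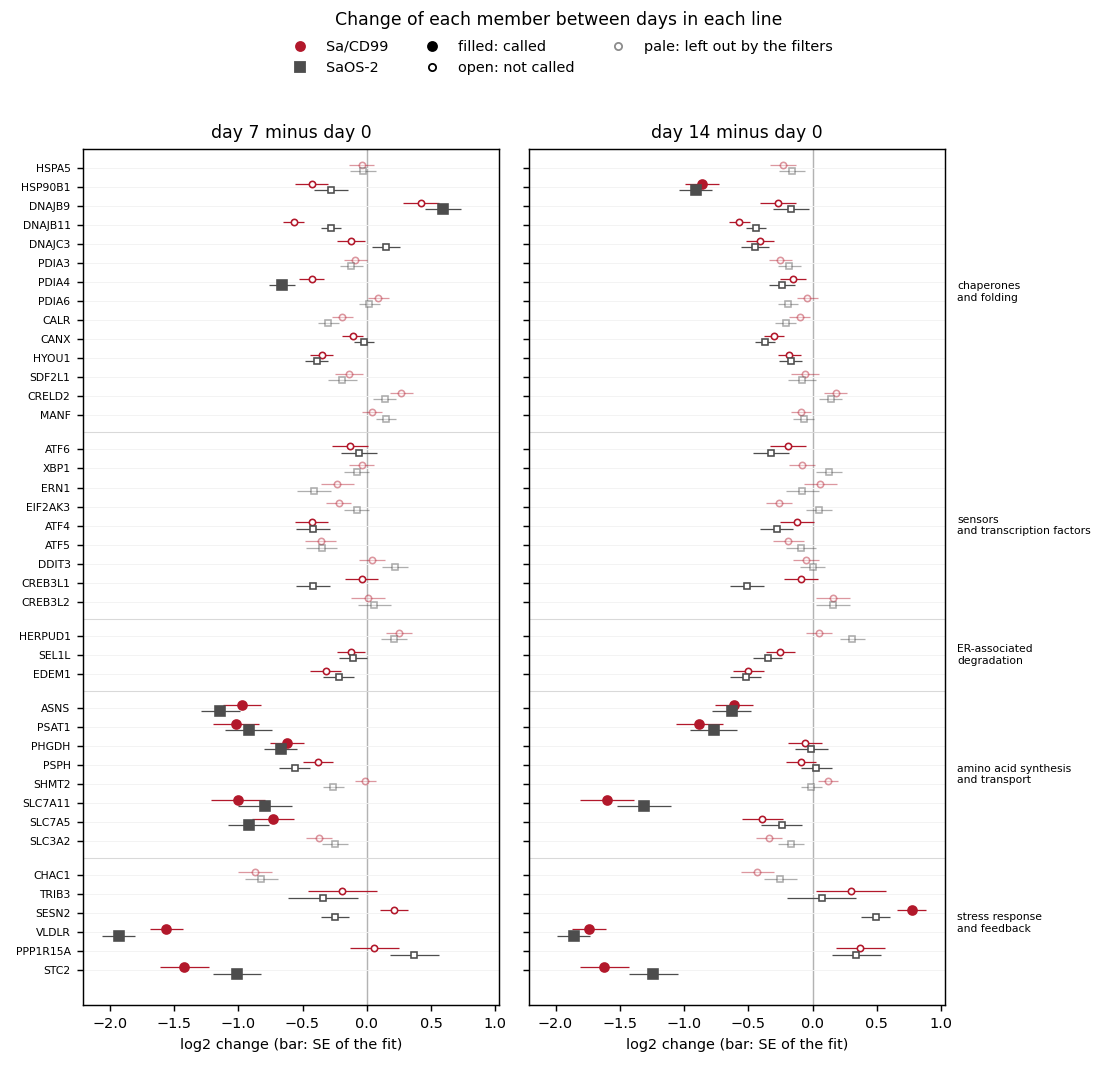
Log2 change of each of the 40 measured genes from day 0 to day 7 (left) and day 14 (right), by role, with red circles for Sa/CD99, grey squares for SaOS-2 and bars for the SE of the fit. Filled symbols passed both thresholds and pale ones belong to genes left out by the filters, whose values come from a fit with fewer or no filters. Calls lie mostly among amino acid and stress response genes, with VLDLR farthest to the left in both panels.

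The step from day 7 to day 14 was compared as an addition, chosen after the data were seen. In SaOS-2, 4 genes rose and 3 fell, where 5.52% of all tested genes rose and 13.0% fell, and in Sa/CD99 0 rose and 2 fell, where 2.80% rose and 12.3% fell. These 4 in SaOS-2 were PHGDH (0.66, adjusted p = 0.00455 by limma), PSPH (0.60, adjusted p = 0.00422), SLC7A5 (0.68, adjusted p = 0.0086) and SESN2 (0.74, adjusted p = 0.00141). In Sa/CD99 these gave 0.56, 0.29, 0.34 and 0.56 and were not called. The genes that fell in SaOS-2 were HSP90B1 (-0.62), DNAJB9 (-0.75) and DNAJC3, which binds nascent chains and inhibits EIF2AK3 (-0.59, adjusted p = 0.00349). In Sa/CD99 DNAJB9 fell (-0.69, adjusted p = 0.00598), and SLC7A11 was at the threshold (-0.61, adjusted p = 0.0485, and 0.0547 with the clone as a block). These comparisons share the day 7 arrays with those against day 0.

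Several of these calls were lost when 1 array was left out, some because the change came under 1.5-fold and others by the adjusted p alone. A loss by the adjusted p alone does not show that the array left out carried the change. In SaOS-2 SLC7A5 was lost without day 7 replicate 2 (adjusted p = 0.0546) or day 14 replicate 1 (adjusted p = 0.0615), PSPH without day 7 replicate 1 (0.51) or day 14 replicate 2 (0.52), DNAJC3 without day 7 replicate 2 (-0.57) or day 14 replicate 1 (-0.53) and HSP90B1 without day 14 replicate 2 (-0.57), the last 3 of these because the change was under 1.5-fold. In Sa/CD99 DNAJB9 was under the fold without clone wt22 at day 14 (-0.47). Other probe sets differed too: the second of DNAJB9 gave -0.33 in Sa/CD99 (adjusted p = 0.0596) and -0.24 in SaOS-2 (adjusted p = 0.122) and was not called, while the third was called in both (-1.20 and -0.98). In SaOS-2 the second probe set of HSP90B1 gave -0.54 (adjusted p = 0.181) and that of SESN2 0.46, under the fold, and DNAJC3 gave -0.52 with a further quantile normalization. SLC7A11 was lost in 15 of 22 alternatives, among them those without clone wt22 at day 7 (adjusted p = 0.0563), clone wt36 at day 7 (-0.46), clone wt22 at day 14 (-0.34) or any of the 6 SaOS-2 arrays (adjusted p between 0.0707 and 0.0716).

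Between the lines, 1 of the 23 tested genes was called on any day, VLDLR at day 7. At day 0, 0 were called, where 1.16% of all tested genes were, at day 7 1 was, where 1.84% were, and at day 14 0 were, where 1.66% were. Unadjusted p was under 0.05 for 1, 8 and 4 of the 23 on these days (4.35%, 34.8% and 17.4%), and for 13.0%, 22.1% and 17.0% of all 12894 probe sets tested. These counts of calls are near the shares over all genes. VLDLR was higher on the arrays labelled Sa/CD99 at day 7, 7.64 and 7.73 against 7.07 and 6.98 in SaOS-2 (0.66, 1.58-fold, SE 0.13, adjusted p = 0.0348 by limma). At days 0 and 14 it gave 0.29 (adjusted p = 0.39) and 0.42 (adjusted p = 0.156), with the arrays labelled Sa/CD99 above those of SaOS-2 on each day. The call at day 7 was lost without clone wt36 at day 7 (0.61, adjusted p = 0.134), SaOS-2 day 7 replicate 1 (0.70, adjusted p = 0.209) or replicate 2 (0.61, adjusted p = 0.247), and any of the other 4 SaOS-2 arrays (adjusted p between 0.0761 and 0.0801). It was lost too with no filter (adjusted p = 0.0572) and with the day 7 arrays alone (adjusted p = 0.157).

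Among the genes not called between the lines, ASNS gave 0.33, 0.50 and 0.35 at days 0, 7 and 14 (SE 0.15, adjusted p = 0.41, 0.116 and 0.294 by limma), all 6 arrays labelled Sa/CD99 lying above the SaOS-2 arrays of their day. SESN2 gave 0.10, 0.56 and 0.38 (adjusted p = 0.799, 0.0333 and 0.129), its day 7 value passing the adjusted p but not the fold at 1.47-fold. Without clone wt22 at day 7, both passed on that day, ASNS with 0.77 (adjusted p = 0.015) and SESN2 with 0.66 (adjusted p = 0.0277), with wt22 below wt36 in each (9.23 against 9.77 in wt36 for ASNS, 8.57 against 8.78 for SESN2). CHAC1, with no filter, gave 0.48, 0.42 and 0.30 (adjusted p = 0.197, 0.225 and 0.451) and TRIB3 0.28, 0.43 and 0.51 (SE 0.27, adjusted p = 0.758, 0.368 and 0.367). In TRIB3 clone wt36 lay above wt22 on each day, 6.97 against 6.50, 6.97 against 6.13 and 7.24 against 6.84, the widest gap between clones of any of the 40 genes at day 7. In SaOS-2 TRIB3 gave 6.45 and 6.46, 6.08 and 6.16, and 6.4 and 6.65, nearly all under the signal floor of 6.64. It passed the signal filter mainly through arrays labelled Sa/CD99, so its differences between the lines lie close to background. STC2 gave -0.01, -0.41 and -0.39 (adjusted p = 0.995, 0.233 and 0.328). DNAJC3, at 9.05 and 9.05 on the arrays labelled Sa/CD99 and 9.45 and 9.50 on those of SaOS-2 at day 7, gave -0.16, -0.43 and -0.13 (adjusted p = 0.63, 0.0813 and 0.603).

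The interaction of line and day, which asks whether a day changed a gene differently in the 2 lines, was called for 0 of the 23 genes at day 7 and 0 at day 14 by limma, where 0% and 0% of all tested genes were called. Unadjusted p was under 0.05 for 2 of them at day 7, DNAJB11 (-0.29, SE 0.12) and SESN2 (0.46), and for 0 at day 14, where it was under 0.05 for 4.22% and 3.62% of all probe sets tested, and the lowest adjusted p was 0.999 on both days. The SE of an interaction was 0.20 at the median.

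**Figure D4:**
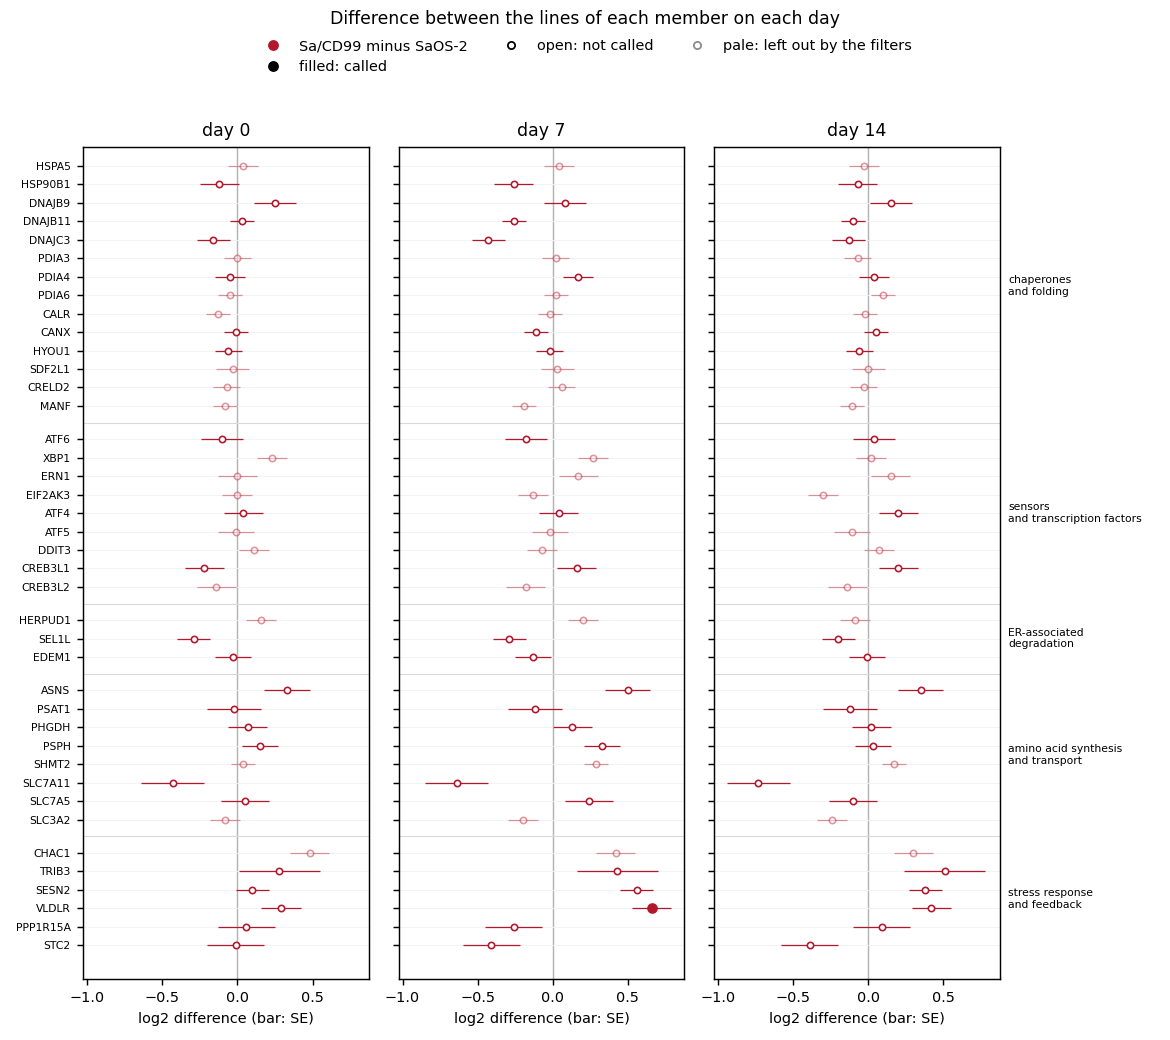
Log2 difference, Sa/CD99 minus SaOS-2, of each of the 40 measured genes at days 0, 7 and 14, by role, with bars for the SE of the fit, filled symbols for calls and pale ones for genes left out by the filters. VLDLR at day 7 (0.66) is the only filled symbol, and chaperones lie within -0.43 to 0.25.

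Other genes of the same processes were read from lists that hold none of the 41. Of 46 measured genes of ER folding, translocation, glycosylation and degradation 22 were tested. At day 7, 1 rose and 2 fell in Sa/CD99 and 1 rose and 2 fell in SaOS-2, and at day 14 0 rose and 3 fell in Sa/CD99 and 0 rose and 2 fell in SaOS-2. Over all tested genes 8.22% rose and 7.59% fell in Sa/CD99 and 10.9% rose and 9.44% fell in SaOS-2 at day 7, and 7.42% rose and 12.3% fell in Sa/CD99 and 7.42% rose and 7.31% fell in SaOS-2 at day 14, so the counts that fell are near those shares. ERO1A, the oxidase that drives disulfide formation, fell in all 4, with -0.65 and -0.89 in Sa/CD99 at days 7 and 14 and -0.79 and -1.09 in SaOS-2 (adjusted p = 0.00185, 0.000534, 0.000718 and 0.000226 by limma). SEC24D, a coat protein of transport from the ER, fell at day 7 (-0.83 and -0.96) and STT3B, a catalytic subunit of oligosaccharyltransferase, at day 14 (-0.77 in each line). EDEM3 rose at day 7 in Sa/CD99 (0.72) and SEC62, of the translocation channel, in SaOS-2 (0.82). The other line had the same direction without a call. EDEM3 in SaOS-2 gave 8.81 and 8.67 at day 7 against 8.07 and 8.26 at day 0. SEC62 in Sa/CD99 gave 9.7 and 9.61 against 9.32 and 8.9. LMAN1, a cargo receptor, fell at day 14 in Sa/CD99 (-0.65) and between the lines was lower, as labelled, in Sa/CD99 at days 7 and 14 (-0.73 and -0.66, adjusted p = 0.018 and 0.0316). It lies on chromosome 18, whose 130 genes above the floor had median differences between the lines of -0.40, -0.41 and -0.39, and the part of that shift in LMAN1 was not tested. From day 7 to day 14, EDEM3 (-1.18 in Sa/CD99 and -1.15 in SaOS-2) and SEC62 fell in both lines. DNAJC10, LMAN1 and STT3B fell on that step in SaOS-2 alone, and the call of DNAJC10 was lost in 11 of 22 alternatives. Leaving out 1 array ended several of these calls. SEC24D in Sa/CD99 gave -0.32 (adjusted p = 0.184) without clone wt22 at day 7, and it was lost without either clone at day 0 (adjusted p = 0.15 without wt22 and 0.062 without wt36) or any of the 6 SaOS-2 arrays (adjusted p between 0.0581 and 0.0613). In SaOS-2 it was lost without each of the 4 arrays compared (adjusted p between 0.0587 and 0.114). Without clone wt22, values in Sa/CD99 were under the fold for ERO1A at day 7 (-0.53 without its day 7 array), STT3B (-0.52 without its day 0 array) and LMAN1 (-0.50 without its day 0 and -0.54 without its day 14 array), and EDEM3 gave 0.51 without wt36 at day 0. STT3B in SaOS-2 was lost without day 0 replicate 2 (adjusted p = 0.0503). The second probe set of ERO1A gave -0.48 in Sa/CD99 and -0.27 in SaOS-2 at day 7, neither called. Between the lines LMAN1 was lost at day 7 without wt36 at day 7 (adjusted p = 0.0735) or either SaOS-2 array of day 7 (adjusted p = 0.185 and 0.139), and at day 14 without wt22 at day 14 (-0.55) or any of the 6 SaOS-2 arrays (adjusted p between 0.0754 and 0.268). The list medians in Sa/CD99 were -0.12 and -0.11 and in SaOS-2 -0.14 and -0.15 at days 7 and 14.

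Of 41 further measured genes of the ATF4 and amino acid response 29 were tested. At day 7, 1 rose and 2 fell in Sa/CD99 and 2 rose and 6 fell in SaOS-2, and at day 14 3 rose and 0 fell in each line. Set against the shares over all genes just given, the 6 of 29 that fell in SaOS-2 at day 7 were more and the 0 that fell at day 14 fewer, with no test made on the shares. CBS and CTH, of cysteine synthesis, fell in both lines (-0.66 and -0.65 in Sa/CD99, -0.77 and -0.75 in SaOS-2), and GARS1, the glycyl-tRNA synthetase, fell in SaOS-2 (-0.78, adjusted p = 0.000928 by limma) and gave -0.53 in Sa/CD99, under the fold. CEBPB, a partner of ATF4 in its complexes, rose in all 4 comparisons, with 0.80 and 0.93 in Sa/CD99 and 0.88 and 0.98 in SaOS-2 at days 7 and 14 (adjusted p = 0.00514, 0.00299, 0.00295 and 0.00298). ATF3, a stress factor, rose at day 14 in Sa/CD99 (0.73) and at both days in SaOS-2 (1.12 and 0.96), DDIT4 at day 14 in Sa/CD99 (0.64) and CARS1 in SaOS-2 (0.61). From day 7 to day 14, CARS1 (0.67), JDP2 and DDIT4 rose in SaOS-2 and JDP2 (0.59) in Sa/CD99. Several of these calls, too, were lost when 1 array was left out, either by the fold or by the adjusted p alone. ATF3 in Sa/CD99 gave 0.34 (adjusted p = 0.168) without clone wt22 at day 14 and was lost without either clone at day 0 (adjusted p = 0.1 and 0.0802) or any SaOS-2 array of day 7 or 14 (adjusted p between 0.0509 and 0.0513). DDIT4 gave 0.35 without wt36 at day 14, under the fold, and was lost without wt22 at day 0 (adjusted p = 0.0591). Without wt22 at day 7, CBS, CTH and CEBPB in Sa/CD99 gave -0.58, -0.58 and 0.58, under the fold, and CTH gave -0.45 without wt22 at day 0. In SaOS-2, ATF3 at day 14 was lost without each of the 4 arrays compared (adjusted p between 0.0595 and 0.0842), CTH without day 7 replicate 1 or day 0 replicate 2 (adjusted p = 0.0707 and 0.0825) and CARS1 without day 0 replicate 2 (0.58) or day 14 replicate 1 (0.57). The second probe set of CTH gave -0.12 in Sa/CD99 and -0.29 in SaOS-2, and in SaOS-2 at day 14 that of ATF3 gave 0.57 and that of CARS1 0.28, none called. Between the lines NARS1, on chromosome 18, was lower on the arrays labelled Sa/CD99 at day 7 (-0.87, adjusted p = 0.00926) and WARS1, on chromosome 14, at day 14 (-0.59, adjusted p = 0.0455), both chromosomes with the shifts given above. NARS1 was lost without either SaOS-2 array of day 7 (adjusted p = 0.115 and 0.0985). WARS1 was lost in 12 of 22 alternatives, among them those without wt36 at day 14 (-0.45), without any of the 6 SaOS-2 arrays (adjusted p between 0.0965 and 0.319) and with the replicate number as a block (adjusted p = 0.0567).

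Heat shock genes of the cytosol were read for comparison. Of 16 measured and 10 tested, 1 fell and 0 rose in each comparison of a later day with day 0, the small chaperone HSPB8 each time (-1.55 and -1.40 in Sa/CD99 and -1.37 and -1.19 in SaOS-2 at days 7 and 14), where 7.31% to 12.3% of all genes fell. In Sa/CD99 its value was -1.02 without clone wt22 and -2.09 without wt36 at day 7. In SaOS-2 its call was lost at day 7 without replicate 1 of day 7 (adjusted p = 0.052) or of day 0 (adjusted p = 0.0524), and at day 14 without each of the 4 arrays compared (adjusted p between 0.0865 and 0.101). Their medians at days 7 and 14 were 0.02 and -0.13 in Sa/CD99 and -0.02 and -0.20 in SaOS-2. From day 7 to day 14, HSPH1 (-0.78 in Sa/CD99 and -0.84 in SaOS-2) and HSP90AA1 fell in both lines. The calls of HSPH1 were lost in 5 of 21 alternatives in Sa/CD99 and 2 of 21 in SaOS-2. Among markers of other cell types EPCAM fell in Sa/CD99 at day 14 against day 0 (-0.62, adjusted p = 0.041 by limma) and against day 7 (-0.91, adjusted p = 0.00978). Without clone wt22 at day 14 these were -0.32 (adjusted p = 0.242) and -0.60 (adjusted p = 0.0541), and the change against day 0 was lost in 13 of 20 alternatives, among them those without either clone at day 0 (adjusted p = 0.127 and 0.0898) or any of the 6 SaOS-2 arrays (adjusted p between 0.0519 and 0.0635). Without wt36 at day 7 the change against day 7 was -0.69 (adjusted p = 0.054). Its part in the values of the 41 genes was not tested. Among osteoblast markers SP7 fell at day 7 in SaOS-2 (-1.19), and RUNX2 rose at day 7 (0.67) and ALPL at day 14 (0.78) in Sa/CD99. In SaOS-2 RUNX2 gave 12.28 and 12.29 at day 7 against 11.69 and 11.72 at day 0, not called. ALPL there gave 12.13 and 11.99 at day 14 against 11.56 and 11.58 at day 0, not called either. IBSP had the largest positive change in both lines, with 3.24 and 3.77 in Sa/CD99 and 1.73 and 2.66 in SaOS-2 at days 7 and 14. It was not called, and its clones lay at 7.37 and 3.26 at day 0. SP7 was lost without either array of day 7 (adjusted p = 0.0551 and 0.0556) or replicate 1 of day 0 (adjusted p = 0.06), RUNX2 gave 0.54 without wt36 at day 0 and -0.01 with its second probe set, and ALPL gave 0.55 without wt36 at day 14. Between the lines ALPL, the alkaline phosphatase of osteoblasts, was lower at day 0 on the arrays labelled Sa/CD99, 10.66 and 10.85 against 11.56 and 11.58 in SaOS-2 (-0.82, adjusted p = 0.0298). At days 7 and 14 it gave -0.51 and -0.52 (adjusted p = 0.105 and 0.123). The day 0 call was lost without either clone at day 0 (adjusted p = 0.0803 without wt22 and 0.0605 without wt36) or any of the 6 SaOS-2 arrays (adjusted p between 0.0667 and 0.238), and the part of ALPL in the values of the 41 genes was not tested.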

How the data were processed

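RNA of 12 samples was measured on Affymetrix HG-U133 Plus 2.0 arrays. The deposited values are log2 signals that the authors made with RMA (background correction, quantile normalization and summary per probe set, in the affy package); the study names releases of R and Bioconductor for quality checks, while versions of RMA and affy and the genome build are not given in the sources used here. Scanner files were not used. The array medians lay between 5.25 and 5.31, and signal near them is close to background, which with 2 arrays per group limits the precision.

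Gene names came from the platform annotation. Of 54613 probe sets other than controls, 41091 name 1 gene, 1801 several and 11721 none. Probe sets at or below a linear signal of 100 on 9 or more of the 12 arrays were left out, which left 18677, and those with an interquartile range at or under the median of 0.219 next, which left 12894. These were fitted with limma 3.58.1 in R 4.3.3, with 1 mean for each of the 6 groups and a spread shared by all (6 residual degrees of freedom), and p-values were adjusted by Benjamini-Hochberg over the 12894 probe sets. The rule named every called member, the 2 members of each role group with the largest changes, HSPA5, ATF4, XBP1, DDIT3, ASNS, VLDLR, CHAC1 and TRIB3, and up to 4 called genes of each other list and comparison by size of change. The members and lists were chosen with earlier results of these data known. The fit was tested on simulated data before use.

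The clone number pairs arrays across days, since each number is 1 cell line: deviations of the same clone correlated with r = 0.58, 0.32 and 0.63 between days 0 and 7, 0 and 14, and 7 and 14. For parental numbers r was -0.04, 0.24 and -0.05. Alternatives were other filters, a further quantile normalization, fits on fewer arrays, weights per line, a trended robust spread, the replicate block, other probe sets and leaving out each array in turn. Those for called genes of the other lists were added after the data were seen.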

Additional observations from a re-analysis of the deposited data

How the results depend on the processing

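Of the called changes of single genes and the line differences of VLDLR, ASNS, SESN2 and SLC7A11, 1 changed sign under an alternative run for it, RUNX2 at day 7 in Sa/CD99 (-0.01 with the second brightest probe set, 0.67 in the report). Counts of called genes of the set kept within 1.5 times of those reported except as follows, and the cause was not tested unless stated. With the arrays of the compared groups alone, 0 genes (1 in the report) were called between the lines at day 7, 2 (7) at day 7 and 1 (7) at day 14 in Sa/CD99, and 0 (2) between days 14 and 7 in Sa/CD99. With the brightest probe set without a less specific suffix, for which 15 of the genes were tested, the counts were 0 between the lines at day 7, 4 and 2 in Sa/CD99 at days 7 and 14, 3 and 3 (9 and 6) in SaOS-2, and 1 in Sa/CD99 and 2 (7) in SaOS-2 between days 14 and 7. With the second brightest, for which 12 were tested, they were 0, 2 and 3 in Sa/CD99, 2 in SaOS-2 at day 7, and 1 in Sa/CD99 and 2 in SaOS-2 between days 14 and 7. No filter gave 0 and quantile normalization of the tested probe sets 2 between the lines at day 7. Between days 14 and 7 in Sa/CD99, 1 gene was called with the signal filter alone, with no filter and with weights per line.

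With the clone or parental number as a replicate block, 1 gene was called between days 14 and 7 in Sa/CD99, where SLC7A11 was lost. WARS1 between the lines at day 14 was lost too (adjusted p = 0.0567), and the block changed no other call named. Leaving out 1 array gave 0 to 3 genes between the lines at day 7 and 0 on days 0 and 14, 6 to 7 and 6 to 8 in Sa/CD99 at days 7 and 14, 7 to 9 and 4 to 6 in SaOS-2, 0 for both interactions, and 0 to 5 in Sa/CD99 and 5 to 7 in SaOS-2 between days 14 and 7. A fit without 1 array takes the lone array of its group to vary as the other groups do.

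Over all probe sets, the fit on the compared groups alone gave 15, 12 and 6 calls between the lines at days 0, 7 and 14 (189, 234 and 188 in the main setting), 799 and 294 (2342 and 2495) in Sa/CD99 at days 7 and 14 and 765 (2399) between days 14 and 7. No filter gave 3815 in Sa/CD99 and 4348 (2765) in SaOS-2 at day 7, and 4152 in Sa/CD99 and 5054 (2958) in SaOS-2 between days 14 and 7. Weights per line gave 1655 at day 14 and 1599 between days 14 and 7 in Sa/CD99, and quantile normalization 122 between the lines at day 0. The interaction at day 14 had 2 calls, and 0 to 5 under these alternatives. Leaving out 1 array gave 13 to 263, 21 to 511 and 18 to 329 calls between the lines at days 0, 7 and 14.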
